A study of Homo sapiens with 96 samples.

Results

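Editing of adenosine to inosine was followed in K562 cells, a human erythroleukemic line, after transcription had been blocked with actinomycin D. The chase columns were chosen by name alone, as those with a first drug for 6 h followed by actinomycin D and a time, and they made up 19 of the 96 samples of the series. The first drug was DMSO, Talazoparib, SN-38, Etoposide or Cyclophosphamide. Actinomycin D followed for 0, 1, 2, 4 or 6 h after DMSO and Etoposide, and for 0, 2 or 6 h after the other first drugs. The groups compared were the 5 columns at 0 h and the 14 columns at 1 to 6 h, with the first drug as a block. Every condition was 1 library of total RNA, depleted of rRNA and strand-specific, and all cells were of the same unmodified line. The labels do not say whether the first drug stayed in the medium during the chase, what the 0 h cells received, or whether libraries came from separate cultures. P-values therefore measure only the spread between these libraries.

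ADAR enzymes deaminate adenosine in double-stranded RNA, and the inosine made is read as G, so an edited site appears as an A-to-G mismatch with a level between 0 and 1. Actinomycin D intercalates into DNA and stops RNA polymerases, so that the RNA seen later was mostly made earlier and unstable RNAs such as introns decay first. Very long intergenic non-coding RNAs (vlincRNAs) are long nuclear transcripts between genes. DMSO is the vehicle, Talazoparib inhibits PARP enzymes, SN-38 traps topoisomerase I, Etoposide traps topoisomerase II, and Cyclophosphamide is an alkylating prodrug activated in the liver.

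The list held 4092 sites with levels, of which 2819 lay in introns, 282 in 3' UTRs, 364 in vlincRNAs and 627 in other elements. Of these, 2168 were recorded, meaning that the list gave them a non-zero level, in 1 or more chase columns, 322 in at least 5, 7 in all 19 and 1004 in exactly 1. In 335 of the 2168 sites, no other column of the series had a level. The libraries held 35.6M to 43.0M reads, and the change from 0 h to later times was −1.02M (SD 1.74, n = 5 first drugs, exact permutation p = 0.335). The list gives no read counts at a site, so that a single level has no interval and a missing level can mean no editing, too few reads or no RNA. In bulk RNA, fewer cells with a transcript and less RNA per cell cannot be told apart.

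The sites that carried the results most clearly are shown with 14 bases on either side, as RNA on the strand of the site, with the edited adenosine in capitals. Positions are on GRCh38, from which a script read the bases. EIF2AK2 3' UTR site A (chr2:37100519, minus strand), site B (chr2:37100891) and site C (chr2:37100954) were recorded in all 19 columns, as was the BLCAP coding site (chr20:37519170, minus strand). The STXBP5 intron site (chr6:147247776, plus strand) rose in level, and the BSDC1 3' UTR site (chr1:32367940, minus strand) was recorded in 2 of 5 columns at 0 h and all 14 later, too few at 0 h for a test of its level. The ADAT2 intron site (chr6:143450034, minus strand) was recorded only after the block, and the NUP58 intron site (chr13:25316917, plus strand) only before it.
EIF2AK2 site A: aauucuaaauaacuAgaaacuguauaaua
EIF2AK2 site B: ugucucacacuuuuAccuguuacaugguu
EIF2AK2 site C: uucaaguaaauacaAgucucagucagaug
BLCAP coding site: ggcagagaucauguAuugccuccaguggc
BSDC1 3' UTR site: uggccuuggagacaAaagaccagugugau
STXBP5 intron site: uuauauagauuuuuAggggcugguacuca
ADAT2 intron site: gaaugcugugugcuAgcgagcuucuuaac
NUP58 intron site: ugacauuaaauuuuAuaaauauuuaugua

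The number of recorded sites was examined first, by element. At 0 h, 284 sites were recorded after DMSO, 257 after Talazoparib, 337 after SN-38, 301 after Etoposide and 259 after Cyclophosphamide. At 1 h, 361 were recorded after DMSO and 376 after Etoposide. At 2 h the numbers were 305 after DMSO, 264 after Talazoparib, 452 after SN-38, 407 after Etoposide and 308 after Cyclophosphamide, each above the 0 h value of the same first drug. At 4 h, 296 were recorded after DMSO and 348 after Etoposide. At 6 h, 202 were recorded after DMSO, 210 after Talazoparib, 382 after SN-38, 261 after Etoposide and 202 after Cyclophosphamide, and 4 of these 5 values lay below 0 h. The mean change from 0 h to 1 to 6 h was 0.06 on the log2 scale (SD 0.18, n = 5 first drugs), with p = 0.64 by the exact permutation test that moves the 0 h label within each first drug. The smallest p this design allows is 0.00296. From 2 h to 6 h the number fell after all 5 first drugs, by 0.48 on the log2 scale (SD 0.18), with an exact sign-flip p of 0.063, the smallest that 5 first drugs allow.

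**Figure D1:**
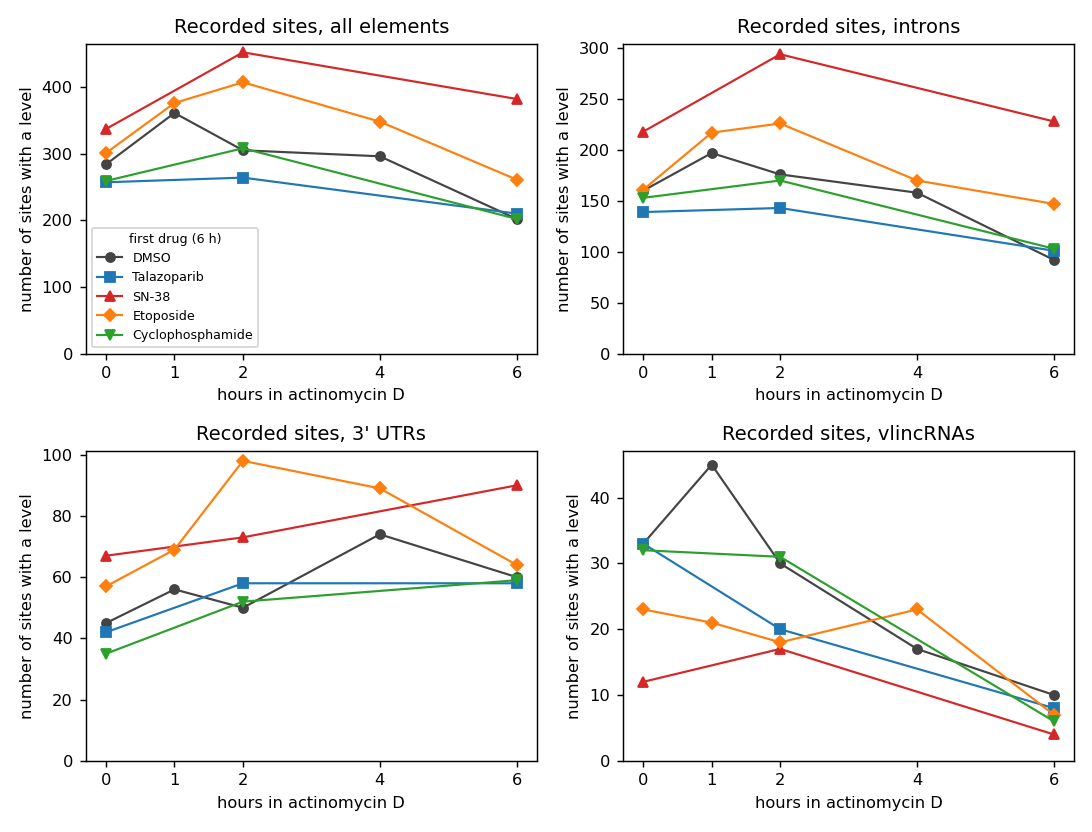
Number of sites with a level (y axis) against hours in actinomycin D (x axis), for all elements, introns, 3' UTRs and vlincRNAs, with 1 point per library and 1 line per first drug. The 3' UTR numbers at 6 h (58 to 90) lie above 0 h for each first drug, and the vlincRNA numbers at 6 h (4 to 10) lie below it.

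The elements differed in direction. 3' UTRs are part of mature mRNA. In them, 45, 42, 67, 57 and 35 sites were recorded at 0 h after DMSO, Talazoparib, SN-38, Etoposide and Cyclophosphamide. At 1 to 6 h the lowest number was 50, the median 62 and the highest 98, and each later column exceeded the 0 h column of its own first drug, although the groups overlapped across first drugs. The number rose 1.36-fold (log2 change 0.45, SD 0.14, n = 5, higher after all 5; exact permutation p = 0.00296, adjusted over 4 elements 0.0119). Without the DMSO or the Etoposide 0 h column, the change was 0.46 or 0.44 with an adjusted p of 0.0593 in each case, where the smallest unadjusted p is 0.0148.

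In vlincRNAs, 33, 33, 12, 23 and 32 sites were recorded at 0 h in the same order of first drugs. At 6 h the numbers were 10 after DMSO, 8 after Talazoparib, 4 after SN-38, 7 after Etoposide and 6 after Cyclophosphamide, all below every 0 h column. At earlier times they overlapped with 0 h, with 45 and 21 at 1 h, 17 to 31 at 2 h, and 17 and 23 at 4 h. The change averaged over all later times was −0.79 on the log2 (n + 1) scale (SD 0.40, lower after all 5 first drugs) and did not pass the test (exact permutation p = 0.116, adjusted 0.231). Among annotated vlincRNA sites, those known from public databases, the 0 h columns held 3 to 15 and the 6 h columns 0 or 1. Their number fell by 1.88 on the log2 (n + 1) scale (SD 0.68, exact permutation p = 0.00593). Unannotated vlincRNA sites numbered 9 to 20 at 0 h and 4 to 10 at 6 h, with a change of −0.35 over all later times (SD 0.28, p = 0.456).

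In introns, which are spliced out and usually decay within the nucleus, 160, 139, 218, 161 and 153 sites were recorded at 0 h. The later columns ranged from 92 to 294 with a median of 170, so that the groups overlapped (log2 change −0.01, SD 0.22, exact permutation p = 0.99). Other elements gave a log2 change of 0.18 (SD 0.28, adjusted p = 0.379). The direct comparison of elements used the same permutations. VlincRNA sites changed by 1.24 less than 3' UTR sites on the log2 scale (difference −1.24, SD 0.50, exact permutation p = 0.0207, adjusted over 3 comparisons 0.0311) and by 0.79 less than intronic sites (difference −0.79, SD 0.24, adjusted p = 0.0311). Both calls were lost without the DMSO, Talazoparib, Etoposide or Cyclophosphamide 0 h column or the SN-38 6 h column, with adjusted p between 0.0533 and 0.0933. The difference between introns and 3' UTRs was −0.45 (SD 0.33, lower after all 5 first drugs, exact permutation p = 0.0652).

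The slope over all 5 times was also tested, by moving times within each first drug. This test was chosen after the data had been seen, and p-values were adjusted over 9 slopes. VlincRNA sites fell by 0.30 per hour on the log2 scale (0.81-fold per hour, permutation p = 0.000315, adjusted 0.00167). Intronic sites fell by 0.08 per hour (adjusted permutation p = 0.0211), and 3' UTR sites rose by 0.07 per hour (adjusted permutation p = 0.0211). The intronic call was lost without the DMSO, Talazoparib or Cyclophosphamide 6 h column (adjusted permutation p between 0.0503 and 0.0679), with 1 site per cluster (−0.045, adjusted p = 0.0751) and with a level of at least 0.2 (−0.035, adjusted p = 0.356). The 3' UTR call was lost without the Cyclophosphamide 0 h or 6 h column (adjusted permutation p = 0.0518 and 0.0529). The share of recorded sites that lay in 3' UTRs was 13.5% to 19.9% at 0 h and 23.6% to 29.7% at 6 h, and the groups at these times did not overlap.

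Sites lost and kept were then followed within each first drug. Of the 108 3' UTR sites recorded in at least 1 column at 0 h, 90.7% were recorded again in at least 1 later column, against 48.7% of 559 intronic and 42.9% of 91 vlincRNA sites. A single later column recorded again 58.5% of the 3' UTR sites of its own 0 h column (SD 4.66, n = 5 first drugs, mean over later times). For introns the share was 13.9% (SD 4.37) and for vlincRNAs 7.81% (SD 3.59). The difference of introns from 3' UTRs was −44.6 percentage points (SD 5.59, lower after all 5 first drugs, exact sign-flip p = 0.063, the smallest 5 first drugs allow). The difference of vlincRNAs from introns was −6.13 percentage points (SD 7.36, lower after 4 of 5, exact sign-flip p = 0.1875).

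The spread between libraries without a chase is given by how many sites of a 0 h column were recorded in the 0 h columns of the other first drugs. This share was 55.5% for 3' UTRs (range 45.9% to 61.9%), 26.4% for introns (23.9% to 29.5%) and 22.4% for vlincRNAs (18.5% to 26.5%). At 6 h the same 0 h sites were found in 52.3% for 3' UTRs (49.1% to 54.3%), 8.09% for introns (4.32% to 10.5%) and 0% for vlincRNAs after each of the 5 first drugs. So the 3' UTR values at 6 h lay within the range between 0 h libraries, and the intronic and vlincRNA values lay below it. The vlincRNA sites still recorded at 6 h had not been recorded in the 0 h column of the same first drug.

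**Figure D2:**
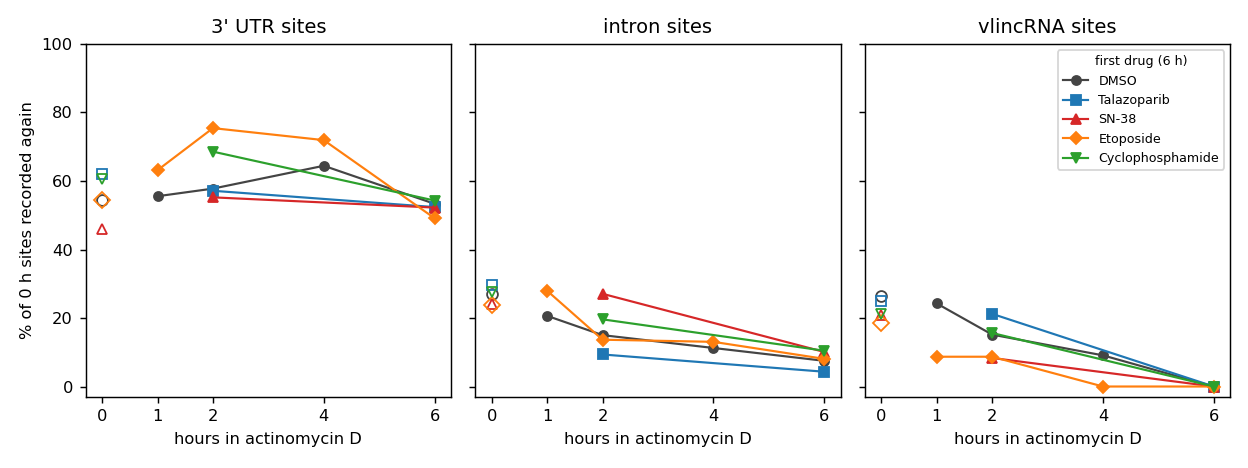
Percentage of the sites of each 0 h column that were recorded again (y axis) against hours in actinomycin D (x axis), for 3' UTR, intronic and vlincRNA sites, with 1 filled point per library and 1 line per first drug. Open points at 0 h give the mean share recorded in the 0 h columns of the other 4 first drugs. VlincRNA values reach 0% at 6 h for every first drug, and 3' UTR values stay between 49.1% and 75.4%.

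Editing levels of the recorded sites rose. The median level of intronic sites at 0 h was 0.333 after DMSO, 0.333 after Talazoparib, 0.317 after SN-38, 0.315 after Etoposide and 0.30 after Cyclophosphamide. At 1 to 6 h the lowest median was 0.444, the median 0.5 and the highest 0.5, so the groups did not overlap. The change was 0.167 (SD 0.00651, n = 5, exact permutation p = 0.00296, adjusted over 4 medians 0.00593). Counting only levels of at least 0.2 as recorded, it was 0.0594 (adjusted exact permutation p = 0.0296). For 3' UTR sites the median level was 0.124 to 0.150 at 0 h and 0.140 to 0.250 later, with a change of 0.0656 (SD 0.0281, higher after all 5 first drugs, exact permutation p = 0.0178, adjusted 0.0237). This call was lost, with adjusted p between 0.0593 and 0.0711, without the DMSO, Talazoparib, SN-38 or Cyclophosphamide 0 h column. For vlincRNA sites the change was 0.0771 (SD 0.0731, adjusted exact permutation p = 0.113).

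Levels of exactly 0.5 or 1, which a site with few reads can give, moved with this result. They made up 10.1% to 15% of intronic levels at 0 h and 20.3% to 28.3% later, and 2.22% to 4.76% of 3' UTR levels at 0 h and 1.72% to 15.7% later. Without these levels, intronic medians were 0.254 to 0.286 at 0 h and 0.279 to 0.519 later, with a change of 0.110 (SD 0.0133, exact permutation p = 0.00296). The 3' UTR change without them was 0.0469 (SD 0.0312, exact permutation p = 0.0178). The part of site depth in the remaining change was not tested.

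**Figure D3:**
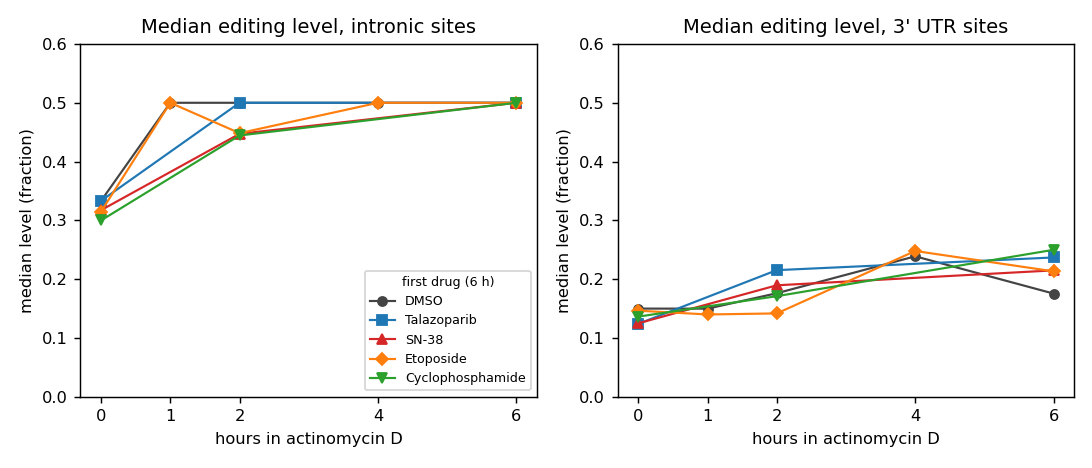
Median editing level of recorded sites (y axis, fraction) against hours in actinomycin D (x axis), for intronic and 3' UTR sites, with 1 point per library and 1 line per first drug. The 5 intronic medians at 0 h (0.30 to 0.333) lie below all 14 later ones (0.444 to 0.5), and all 5 are 0.5 at 6 h.

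The change was also seen within sites recorded both at 0 h and later. Intronic sites had a higher later level in 278 of 334 site-by-library pairs, and the median difference per library was above 0 in 14 of 14 libraries (0.0471 to 0.289). Averaged over first drugs it was 0.189 (SD 0.0833, n = 5, exact sign-flip p = 0.063). For 3' UTR sites, 290 of 413 pairs were higher and the median difference was 0.0561 (SD 0.0130, n = 5, above 0 in 14 of 14 libraries, exact sign-flip p = 0.063). Between 0 h columns of different first drugs, the same median differences averaged −0.00947 to 0.0141 for introns and −0.0199 to 0.0130 for 3' UTRs. After DMSO, the medians of intronic levels at 0 h were 0.183 for the sites kept at 6 h and 0.345 for those lost.

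Levels were next tested site by site with limma, over 86 sites with a level in at least 3 columns of each group, with first drug in the model. The level rose at 13 sites and fell at 0 (15.1% of the sites tested, Benjamini-Hochberg adjusted p under 0.05). At an unadjusted p under 0.05 there were 29 sites, and 74 of the 86 differences were above 0. By element, 7 of 27 intronic sites, 3 of 36 in 3' UTRs, 1 of 6 in vlincRNAs and 2 of 17 in other elements passed. The median differences were 0.304 for introns, 0.0446 for 3' UTRs and 0.230 for vlincRNAs, against 0.117 over all 86 sites. Without the DMSO, SN-38 or Etoposide 0 h column, 8, 7 or 8 sites passed.

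The STXBP5 site lies in an intron of the gene for tomosyn, a syntaxin-binding protein. Its level at 0 h was 0.166 after DMSO, 0.157 after Talazoparib, 0.170 after Etoposide and 0.156 after Cyclophosphamide, with none recorded after SN-38. In the 8 later columns with a level, the lowest was 0.333, the median 0.884 and the highest 1, and the groups did not overlap. The difference was 0.576 (SE 0.120, limma adjusted p = 0.0200), and the call was lost without the DMSO or Talazoparib 0 h column (limma adjusted p = 0.0505 and 0.0672). The CHD1 intron site (chr5:98862230), in the gene of a chromatin remodeler, had 0.10, 0.261 and 0.178 after Talazoparib, SN-38 and Cyclophosphamide at 0 h. It had 0.571 to 0.909 in 4 later columns, all at 1 or 2 h. Only SN-38 had a level both at 0 h (0.261) and later (0.909 at 2 h). The difference of 0.648, with first drug in the model, therefore rests on 1 library against 1. The site was among those called, and the call was lost without the DMSO or Cyclophosphamide 6 h column. The IQCB1 intron site (chr3:121833205), in a gene of the primary cilium, had levels of 0.475 to 0.638 in the 5 columns at 0 h and 1.00 in each of 4 later ones, with none recorded at 6 h (difference 0.409, SE 0.0358, limma adjusted p = 0.00784). A level of exactly 1 can come from few reads, and these 4 values had no spread. The small SE should be read with this limit.

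Among the other intronic sites that rose, the NLK site (chr17:28046039), in the gene of a serine/threonine kinase, had 0.140 to 0.278 at 0 h and 0.452 to 0.857 in 6 later columns, and its call was lost without the DMSO or Etoposide 1 h or the SN-38 2 h column. A second NUP58 site (chr13:25317498), in the gene of a nuclear pore protein, had 0.283 to 0.556 at 0 h and 0.60 to 0.917 in 5 later columns, none at 6 h. Both NSMAF sites (chr8:58658582 and chr8:58657921) rose, by 0.368 and 0.306, the second not without the SN-38 or Cyclophosphamide 2 h column. A vlincRNA site (chr7:84834465, unannotated) had 0.130 to 0.379 in 4 columns at 0 h and 0.634 to 0.80 in 3 later ones, a call lost without the SN-38 or Etoposide 0 h column. A site outside annotated genes (chr6:16161528) had 0.444 to 0.60 at 0 h and 0.833 to 0.910 in 4 later columns. The groups did not overlap at 21 of the 86 sites tested (24.4%), and at 9 of the 10 described here with the largest difference among called sites, a choice that itself favours separate groups.

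A called 3' UTR site lay in PGGT1B (chr5:115206616), the gene of a protein prenyltransferase subunit. Its levels were 0.0667 to 0.147 in 4 columns at 0 h. In 13 later columns it had 0.231 to 0.792 with a median of 0.565, so the groups did not overlap (difference 0.370, SE 0.103, limma adjusted p = 0.0325). The SMU1 3' UTR site (chr9:33043866), in a splicing factor gene, had 0.124 to 0.408 in the 5 columns at 0 h and 0.151 to 0.80 in 13 later ones, with overlap (difference 0.222, SE 0.0677, limma adjusted p = 0.0423). The SMU1 call was lost without any 1 of 9 columns (DMSO, Talazoparib, SN-38 or Etoposide at 0 h, Etoposide at 2 h, DMSO at 4 h, or DMSO, SN-38 or Cyclophosphamide at 6 h), with limma adjusted p up to 0.12. The PGGT1B call was lost without the DMSO, Talazoparib, SN-38 or Etoposide 0 h column (limma adjusted p up to 0.0743).

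EIF2AK2 encodes PKR, a kinase activated by double-stranded RNA. At site A the level at 0 h was 0.30 after DMSO, 0.240 after Talazoparib, 0.327 after SN-38, 0.229 after Etoposide and 0.314 after Cyclophosphamide. At 6 h it was 0.546, 0.397, 0.671, 0.661 and 0.526 in the same order, above every 0 h value. Over all 14 later columns the lowest was 0.296, the median 0.481 and the highest 0.671 (difference 0.194, SE 0.0471, limma adjusted p = 0.0173, and 0.0534 without the Etoposide 0 h column). At site B the level went from 0.150 to 0.240 at 0 h to 0.376 to 0.549 at 6 h (difference 0.172, SE 0.0581, limma adjusted p = 0.0572). Site C had 0.113 to 0.308 at 0 h and 0.110 to 0.281 later (difference 7.7e-05, SE 0.0275, limma adjusted p = 0.998).

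The slopes per hour of the 7 sites recorded in all 19 columns were tested after the data had been seen, with adjustment over the 7. Sites A and B rose by 0.0436 and 0.0488 per hour (adjusted permutation p = 2.93e-05 and 2.25e-05), and site C had a slope of 0.000364 per hour (adjusted permutation p = 0.932). The difference between sites A, B and C was not tested. The GNL3L 3' UTR site (chrX:54563297) and the STRIP2 3' UTR site (chr7:129488024) rose by 0.0277 and 0.0139 per hour (adjusted permutation p = 0.000522 and 0.0166). The BLCAP coding site, a known recoding position, had levels of 0.130 to 0.193 at 0 h and 0.121 to 0.249 later, with a slope of −0.00417 per hour (adjusted permutation p = 0.491). The SSR4 5' UTR site (chrX:153795859) had 0.180 to 0.665 at 0 h and 0.178 to 0.717 later (adjusted permutation p = 0.756).

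**Figure D4:**
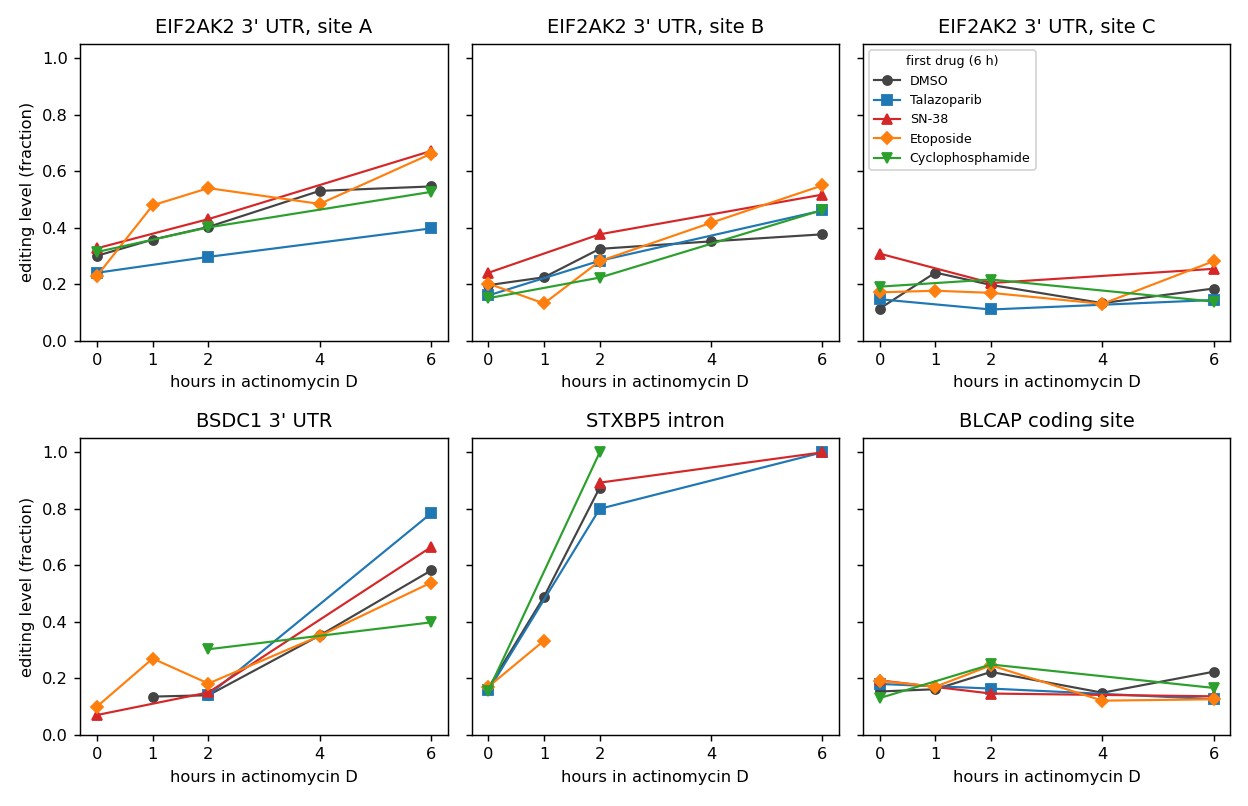
Editing level (y axis, fraction) against hours in actinomycin D (x axis) at 6 sites, with 1 point per library in which a level was recorded and 1 line per first drug. EIF2AK2 sites A and B, BSDC1 and STXBP5 are higher at later times (the BSDC1 level was not tested), while EIF2AK2 site C and the BLCAP coding site keep overlapping values.

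Whether a site was recorded at all was tested for the 322 sites with a level in at least 5 columns. By the exact permutation test none passed after adjustment (0% of 322). At an unadjusted p under 0.05 there were 27 (8.39%), of which 10 were recorded more often later and 17 less often. Of all 322 sites, 199 were recorded more often later and 119 less often. The 14 later columns can meet the minimum of 5 more easily than the 5 at 0 h, so the filter itself shapes this split. With the 0 h label moved over all 19 columns instead, 11 passed, 2 more often and 9 less often recorded later. With a level required in at least 8 columns, 13 of 136 sites had an unadjusted p under 0.05. Of these, 10 were recorded more often later and 3 less often. With 5 columns at 0 h, a site recorded only there cannot reach 8. This setting therefore says nothing about the direction of change. The 11 sites with the largest difference are given as values, of which the last, in CD164, tied with others and was added after its values were seen. The ADAT2 intron site, in the gene of a subunit of the tRNA adenosine deaminase, was recorded in 0 of 5 columns at 0 h and 14 of 14 later, at levels of 0.173 to 0.856. An SDF4 intron site (chr1:1222080) was recorded in 0 of 5 and 13 of 14 columns, at 0.150 to 0.720.

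The other 9 of these sites were recorded in all 5 columns at 0 h and in 0 or 1 later column. Such sites met the minimum of 5 columns through the 0 h group. They were 3 in NUP58 (chr13:25316917, chr13:25316919 and chr13:25317499), 2 in MTCH1 (chr6:36973875 and chr6:36973943), 2 in FBXL4 (chr6:98921700 and chr6:98922725) and 1 in NDUFV2 (chr18:9113030, where 2 annotated genes overlap), all in introns, and 1 in the 5' UTR of CD164 (chr6:109372557), a sialomucin gene. MTCH1, FBXL4 and NDUFV2 encode mitochondrial proteins. Levels at 0 h were 0.610 to 1.00 at the first NUP58 site, 0.688 to 0.834 at the first MTCH1 site and 0.110 to 0.427 at the NDUFV2 site. The single later column with a level was at 1 h for the NUP58, FBXL4, NDUFV2 and CD164 sites that had one.

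Counting recorded sites per gene, 65 genes with at least 3 listed sites and a mean of at least 1 recorded site were tested by exact permutation. The number fell in 6 genes (9.23% of the genes tested) and rose in 2 (3.08%), together 12.3% at an adjusted p under 0.05, with 20 genes at an unadjusted p under 0.05. The listed sites of BSDC1 and ZNF514, which rose, lay in 3' UTRs, and those of NUP58, MTCH1, TMEM245, AZI2 and, for 15 of 17, LRPPRC, which fell, lay in introns. No contrast of elements was tested over genes. Genes with intronic sites that just missed the threshold went both ways. CALU, OR51B5 and KCTD20 had more recorded sites later after all 5 first drugs, with changes of 2.70, 3.5 and 1.65. FBXL4 had fewer after all 5 first drugs, with a change of −3.25 (adjusted exact permutation p = 0.0593 for each gene). They were named after their values were seen, and OR51B5 overlaps other genes. Sites of a gene share their transcripts, so they are not independent. The minimum mean was taken over all 19 columns, so a single group could carry it. LRPPRC, NUP58, MTCH1, TMEM245 and AZI2 had later means of 0.286 to 0.643, and BSDC1 a 0 h mean of 0.6. These genes met the minimum only through the group where they were high. The same held for CALU, OR51B5 and KCTD20 (0 h means of 0.2 to 0.6) and FBXL4 (later mean of 0.571).

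LRPPRC encodes a protein that stabilises mitochondrial mRNA. It had 6, 11, 7, 1 and 5 recorded sites at 0 h after DMSO, Talazoparib, SN-38, Etoposide and Cyclophosphamide, and 0 to 2 in later columns, with 0 in 11 of 14. The change was −5.65 sites (SD 3.45, n = 5, exact permutation p = 0.00593, adjusted 0.0481). NUP58 had 4, 4, 5, 4 and 4 sites at 0 h and 0 to 2 later, and it was the only tested gene whose groups did not overlap, 1.54% of the 65 (change −3.85, SD 0.74, adjusted exact permutation p = 0.0385). MTCH1 had 3 to 6 sites at 0 h and 0 to 3 later, with 0 in 10 of 14 columns (change −3.75, SD 0.90, adjusted exact permutation p = 0.0385).

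TMEM245, a membrane protein gene, had 1 to 8 sites at 0 h and 0 in 12 of 14 later columns (change −3.60, adjusted exact permutation p = 0.0481). AZI2, an adapter in innate immune signalling, had 1 to 6 sites at 0 h and 0 in 13 of 14 later columns. The exception was the Etoposide 1 h column with 6 (change −2.50, adjusted exact permutation p = 0.0481). LINC00534, a non-coding RNA within a vlincRNA, had 9, 9, 1, 3 and 8 sites at 0 h and a total of 1 over the 5 columns at 6 h, against 30 at 0 h (change −4.30, SD 2.28, adjusted exact permutation p = 0.0385).

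BSDC1 held 3 listed sites side by side in its 3' UTR (chr1:32367938 to chr1:32367940). At 0 h, 0, 0, 1, 2 and 0 were recorded, and 1 to 3 in each later column, with a median of 3 (change 2.15, SD 0.74, adjusted exact permutation p = 0.0385). At the position printed above, the level was 0.0700 after SN-38 and 0.10 after Etoposide at 0 h, with no other column recorded. At 1 or 2 h it was 0.135 to 0.303, at 4 h 0.350 and 0.352, and at 6 h 0.398 to 0.784. ZNF514, a zinc finger gene, had 2 to 7 sites at 0 h and 3 to 10 later (change 2.55, SD 1.5, adjusted exact permutation p = 0.0385). All 21 listed ZNF514 sites lie in a second annotated gene of the same strand, so the source of its reads is uncertain.

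The gene calls depended on single columns. Without any 1 of the 5 columns at 0 h, or of the 6 later columns after Talazoparib, SN-38 and Cyclophosphamide, 0 genes passed. Leaving out 1 column lowers the number of permutations to between 135 and 540, and raises the smallest p from 0.00296 to between 0.0037 and 0.0148. Without 1 of the later columns after DMSO or Etoposide, 5 to 11 genes passed.

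**Figure D5:**
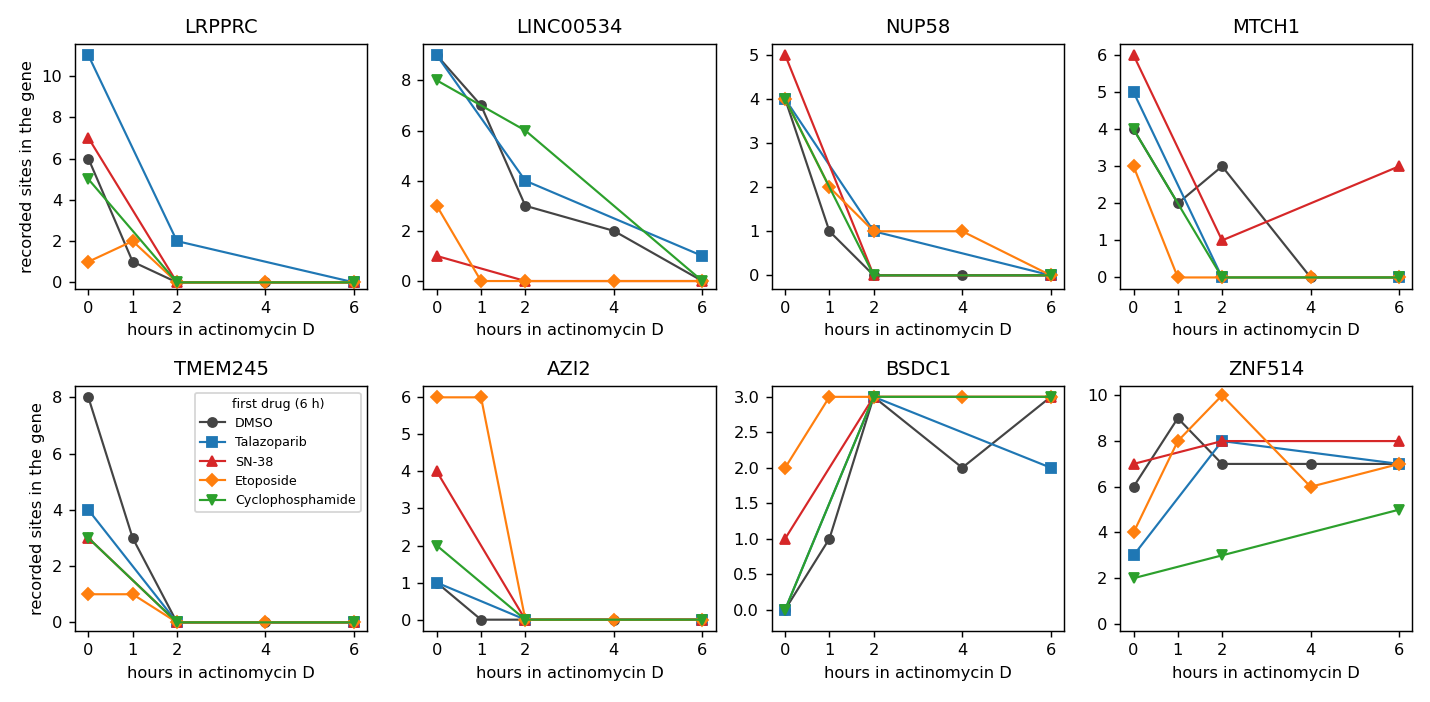
Number of recorded sites (y axis) in each of the 8 genes past the threshold against hours in actinomycin D (x axis), with 1 point per library and 1 line per first drug. The 6 genes that fell are at 0 in most later libraries, and BSDC1 and ZNF514 are higher at later times.

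Gene lists chosen with earlier results of these data known are described by counts. Of 8 nuclear lncRNAs, 4 held listed sites and 2 were tested, with 0 rising and 1 (LINC00534) falling. FIRRE, a lncRNA that organises nuclear domains, had 2 to 8 recorded sites at 0 h and 0 to 19 later (adjusted exact permutation p = 0.821). LINC02109 had 0 to 7 sites at 0 h and was recorded in 2 of 14 later columns, none at 6 h. Of 14 known recoding targets, 9 held listed sites and 1 (BLCAP) was tested, with no call. The SON coding site (chr21:33551013), in a splicing gene, was recorded in 0 of 5 columns at 0 h and in 9 of 14 later. These included all 5 at 6 h, and the levels were 0.010 to 0.040. At levels this low, a missing value at 0 h may mean too few reads, which the list does not show.

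Of 16 DNA damage and repair genes, 4 held listed sites and 1 (MRE11) was tested, with no call. MRE11, a nuclease subunit that binds broken DNA ends, had 0 recorded sites in all 5 columns at 0 h and 0 to 9 later, with sites in 7 of 14 columns (adjusted exact permutation p = 0.308). Of 34 zinc finger genes with listed sites, 16 had a recorded site and 2 were tested, with 1 (ZNF514) rising. Together these genes had 3 to 14 recorded sites per column at 0 h and 7 to 22 later. RSPH3 had 1 to 8 sites at 0 h and 0 to 10 later (adjusted exact permutation p = 0.678), and RAB3GAP2 0 or 1 at 0 h and 0 to 12 later (adjusted exact permutation p = 0.77). OR51I1 had none at 0 h and 0 to 3 later.

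Position and sequence were described for the recorded sites. The median distance of recorded intronic sites from the start of their gene was 38.0 kb after DMSO, 45.5 kb after Talazoparib, 23.4 kb after SN-38, 14 kb after Etoposide and 43.2 kb after Cyclophosphamide at 0 h. At 6 h it was 23.1, 24.9, 12.4, 16.5 and 20.3 kb in the same order. It fell by 10.5 kb on average over later times (SD 8.43, n = 5, exact permutation p = 0.0237, test chosen after the data had been seen), and the groups overlapped. The median length of genes with recorded intronic sites changed by −14.2 kb (SD 13.0, exact permutation p = 0.0948). The part of gene length in the distance was not tested. A U before the edited adenosine, the preferred neighbour of ADAR enzymes, was found at 49.3% to 56% of recorded sites at 0 h and 46.4% to 55% later (change −2.43 percentage points, SD 3.42, exact permutation p = 0.0978).

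The topoisomerase inhibitors were compared with the other first drugs at matched times. After SN-38 and Etoposide, 1.27-fold more sites were recorded (log2 difference 0.35), and p was 0.0005 when labels were moved within each time, the smallest of 4000 arrangements. With each first drug left out in turn, the difference ranged from 0.26 without SN-38 to 0.62 without Etoposide (permutation p = 0.0078 and 0.0313). By element, the log2 difference was 0.42 for introns and 0.44 for 3' UTRs (adjusted exact permutation p = 0.00175 for each, over 7 measures) and −0.53 for vlincRNAs (adjusted exact permutation p = 0.0639). Libraries of the same first drug may not be independent. With the first drug as the unit, over 0, 2 and 6 h, the log2 difference was 0.48 and p was 0.2, the smallest that 2 against 3 first drugs allow. Intronic sites lay 13.5 kb nearer to gene starts after these inhibitors (difference −13.5 kb, exact permutation p = 0.0005 with labels moved within each time). The median length of their genes was also lower (difference −15.7 kb, p = 0.007 by the same test). The part of gene length in the distance was not tested, and neither measure was tested with the first drug as the unit. The change from 0 h in recorded sites differed by 0.30 between the 2 kinds of first drug (exact permutation p = 0.2, again the smallest possible).

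Other library sets with a second step of the same times were set beside the chase, at 2 and 6 h against 0 h. They differ from the chase in more than the second treatment, and the library set and the treatment cannot be told apart. Series were not matched by first drug, and Talazoparib and Cyclophosphamide had no counterpart in these sets. In 3 wash-out series (DMSO, SN-38 and Etoposide, then removal of the drug), recorded sites changed by −0.41 on the log2 scale (SD 0.40), against 0.01 (SD 0.20) in the 5 chase series. The difference of 0.42 had an exact permutation p of 0.143. For 3' UTR sites the changes were 0.42 (SD 0.16) in the chase and −0.51 to −0.04 after wash-out, a difference of 0.64 (exact permutation p = 0.0357, the smallest possible). For vlincRNA sites the mean changes were −0.95 in the chase and 0.46 after wash-out. Their difference of −1.41 did not pass (exact permutation p = 0.143). Differences for intronic sites (0.38, exact permutation p = 0.214) and other elements (0.77, exact permutation p = 0.179) did not pass either. Nor did that for the median level of 3' UTR sites (0.0706, exact permutation p = 0.107). P-values of these tests by element were not adjusted. The median level of intronic sites changed by 0.156 to 0.172 in the chase and by −0.115 to 0 after wash-out (difference 0.226, exact permutation p = 0.0357). At 0 h this median was already 0.429 after DMSO, 0.375 after SN-38 and 0.5 after Etoposide (39 sites) in the wash-out series. In the chase it was 0.30 to 0.333 at 0 h. The part of these starting values in the difference was not tested.

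Alpha-amanitin binds RNA polymerase II and also stops transcription, and it followed DMSO and Etoposide. In its 2 series, the log2 changes were 0.17 and 0.42 for 3' UTR sites and −1.61 and −1.0 for vlincRNA sites, against ranges of 0.27 to 0.65 and −1.31 to −0.45 in the chase. The differences in all recorded sites (0.12, exact permutation p = 0.667), 3' UTR sites (p = 0.381 by the same exact test) and vlincRNA sites (p = 0.286 by the same exact test) did not pass, where the smallest p is 0.0952. The median level of intronic sites changed by −0.118 and 0.0583, below every chase series (0.156 to 0.172, exact permutation p = 0.0952). These series also began higher, at 0.388 after DMSO and 0.491 after Etoposide, against 0.30 to 0.333 at 0 h in the chase. The part of these starting values in the difference was not tested.

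Actinomycin D without a first drug was measured in 1 library at 2 h and 1 at 6 h. They held 359 and 191 recorded sites, of which 73 and 58 were in 3' UTRs and 7 in vlincRNAs in each. The median intronic level was 0.408 at 2 h and 0.5 at 6 h. The 2 DMSO libraries at 2 h had 287 and 255 recorded sites with intronic medians of 0.30 and 0.320. Of these sites, 64 and 43 were in 3' UTRs and 7 and 15 in vlincRNAs. At 2 h, the vlincRNA number without a first drug was thus also found in a vehicle library. In the 2 DMSO libraries at 6 h, 35 and 46 sites were in 3' UTRs and 28 and 20 in vlincRNAs. The 2 DMSO libraries at 6 h had 173 and 238 sites with intronic medians of 0.5 and 0.30, so these vehicle libraries differed from each other by more than the mean intronic change in the chase.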

How the data were processed

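Editing levels were deposited by the authors as a fraction per site and sample in 1 list of sites. Per the study's methods, the authors aligned reads to GRCh38 with TopHat2 (2.1.1), removed duplicates, called sites with 3 tools and averaged levels over tools. They dropped repeats, known variants and poorly mappable regions. Sites had to reach a level above 0.2 in some column, so these libraries took part in choosing the list. SAMtools 1.9 and Picard 2.0.1 are named in the submitters' processing notes. Levels are not corrected for depth. The labels and the study's methods name different Illumina sequencers. A further 34 columns belong to other publications and were not used. The untreated column was mapped as a group only.

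Here, 57 sites found by Sanger sequencing alone were left out, and a level of 0 was read as not recorded. The reference base was A at all 4092 other sites. Elements are the authors' and genes were taken from GENCODE release 44 on the same strand, while the authors named release 41 (3742 sites had a gene, 372 had more than 1). Reads per library came from the study's supplement. Numbers of sites were compared as log2 values, with 1 added for single elements, by two-sided exact permutation of the 0 h label within first drug, and series by sign-flips or exact permutation. Levels of single sites were tested with limma 3.58.1 in R 4.3.3, with adjusted p-values (Benjamini-Hochberg) and a threshold of 0.05. Python 3.11.15, numpy 2.4.6 and pandas 2.3.3 were used. The permutation of the 0 h label, the slope test, the test of topoisomerase inhibitors within times and limma were tried on simulated data. The sign-flip tests and the comparisons with other series were not.

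The named sites and genes were, for each test, up to 10 with the largest change each way among those past the threshold, or, with fewer than 5 past it, the 10 with the largest difference. To these were added sites recorded in all 19 columns and listed genes. Members and lists were chosen with earlier results of these data known. Slopes, within-site changes, distances, gene lengths, tests by element of the other series and levels without 0.5 and 1 were added after the data had been seen. Alternatives were annotated sites only, at least 2 tools, 1 site per cluster (gap of 100 bases), a level of at least 0.2, reads per library, other filters, no block and each column left out.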

Additional observations from a re-analysis of the deposited data

Results flagged for a closer look

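In the 5 columns at 0 h, 26 measures were checked for a single library apart from the others by Dixon's test, which flags about 1 in 20 such sets by chance. The SN-38 library at 0 h had 218 recorded intronic sites, against 139 to 161 in the other 4. The gap was 72.2% of the range. NUP58 had 5 recorded sites in the same library and 4 in each of the other 4.

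The log2 change in recorded intronic sites from 0 h to 1 to 6 h was above 0 after both topoisomerase inhibitors (0.25 and 0.22) and below 0 after the 3 other first drugs (−0.21 to −0.09), and these means differed by 0.401. With 2 against 3 first drugs the exact permutation p was 0.2, the smallest possible, so the difference was not shown.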

How the results depend on the processing

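The first drugs served as blocks in the comparisons of later times with 0 h, and time in the test of topoisomerase inhibitors. The comparisons with wash-out and alpha-amanitin series had no block. Beyond these blocks no paired analysis was possible because the columns compared carry no replicate numbers in the labels. Over 21 results and their alternatives, 360 of 423 values were held to be the same. For most results this meant the same direction and side of the threshold. For the numbers of called sites and genes it meant only an equal or close number. The change in intronic sites had no stable direction: it was 0.043 with 1 site per cluster, 0.24 with a level of at least 0.2, 0.0014 with the 0 h label moved over all columns and 0.031 per library size. With annotated sites only, the change was −0.016 for all sites and −1.88 for vlincRNAs, and the intron minus 3' UTR difference was −0.671, the last 2 past the threshold. With the label moved over all columns, calls were lost for 3' UTR sites (0.46) and for vlincRNAs minus 3' UTRs (−1.14) and minus introns (−0.684), and 11 sites were called by recording. With a level of at least 0.2, the 3' UTR median change (0.0502) was lost and the intronic one was 0.0594, while the vlincRNA median change (0.082) and the difference from wash-out (0.73) passed. With 1 site per cluster, the vlincRNA median change (0.103) passed. Without first drug in the model, 20 sites were called by level, and with genes of at least 1 listed site 5 genes passed. The vlincRNA median could not be taken for annotated sites only, since some columns had none. The cause of these differences was not tested.

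With each column left out, the change ranged from −0.081 to 0.062 for intronic sites and from 0.395 to 0.49 for 3' UTR sites. The intron minus 3' UTR difference ranged from −0.563 to −0.355 and passed without the SN-38 0 h, SN-38 2 h or Etoposide 1 h column. VlincRNAs minus 3' UTRs ranged from −1.48 to −1.0 and vlincRNAs minus introns from −0.934 to −0.637. The 3' UTR median change ranged from 0.0565 to 0.0735, called genes from 0 to 11 and sites called by level from 7 to 17. Levels rest on reads per site that are not given, so precision at single sites is unknown.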
